A study of Rattus norvegicus with 20 samples.

Results

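Chemokines and chemokine receptors were followed in cultured rat epithelial cells before and after the cells had spent time in skin. The genes were taken by name: a probe set with exactly 1 symbol in the platform annotation was kept where that symbol began with Cxcl, Ccl, Cx3cl, Cxcr, Ccr or Ackr and a number. This gave 49 genes of 14506 named symbols, each with 1 probe set of the 29215 on the array. They comprised 13 CXC ligands and fractalkine, 19 CC ligands, 6 CXC receptors, 8 CC receptors, 2 atypical receptors and Ccr1l1, a CC receptor-like gene placed in no role.

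The epithelia of 5 tissues (trachea, esophagus, vagina, oral mucosa and footpad) were taken from Sprague-Dawley rats at postnatal day 200, all carrying the SDTgN (act-EGFP)obsCZ-004 transgene, which makes EGFP in every cell type. Their cells, cultured over irradiated 3T3-J2 mouse feeders, were measured either before transplantation, or after injection into newborn mouse skin, grafting on nude mice, recovery from the graft and a second culture. Each of the 10 groups had 2 arrays, made from 100 ng of RNA of EGFP-sorted cells, and levels are log2 values of a rat gene-level Affymetrix array. The sort leaves out mouse cells but not other rat cells, athymic hosts keep their innate leukocytes, and every array reports cells in culture, not in the graft. The sample names carry a Roman numeral, read here as the passage number, that differs between the stages in all tissues but vagina. Where it differs, passage and transplantation cannot be told apart. The names do not say what the numeral counts after transplantation, so a passage difference is not excluded in vagina either. The sources used here do not say whether the duplicates came from separate animals, so the p-values measure the spread between duplicates, which may be smaller than that between animals.

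Chemokines are small secreted proteins that direct cell migration through G protein-coupled receptors. CXC ligands with a glutamate-leucine-arginine (ELR) motif, such as Cxcl1, Cxcl2, Cxcl3 and Cxcl6, attract neutrophils and signal through Cxcr2, which keratinocytes also carry. Cxcl9, Cxcl10 and Cxcl11 are induced by interferon and act on Cxcr3, while Ackr3 is an atypical receptor that binds Cxcl12 and Cxcl11 and removes them. NF-kappaB, a transcription factor switched on by interleukin 1 and tumor necrosis factor, is a known activator of ELR ligand genes.

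The 250 bases before the RefSeq start site (build GRCr8) are printed for the 4 genes of the ELR system that passed the test in more than 1 tissue, since 3 of the 4 hold the same NF-kappaB motif in nearly the same place. Capitals mark the bases that match the NF-kappaB consensus, and each run reads 5′ to 3′ on the strand of the gene and ends at the base before the start site.
Cxcl1 (chr14:17479322-17479571, minus strand): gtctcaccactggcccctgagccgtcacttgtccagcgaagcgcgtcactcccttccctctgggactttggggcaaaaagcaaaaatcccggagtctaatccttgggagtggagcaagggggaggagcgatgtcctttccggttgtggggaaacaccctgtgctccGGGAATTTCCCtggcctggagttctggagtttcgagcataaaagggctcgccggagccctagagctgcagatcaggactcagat
Cxcl2 (chr14:17467256-17467505, minus strand): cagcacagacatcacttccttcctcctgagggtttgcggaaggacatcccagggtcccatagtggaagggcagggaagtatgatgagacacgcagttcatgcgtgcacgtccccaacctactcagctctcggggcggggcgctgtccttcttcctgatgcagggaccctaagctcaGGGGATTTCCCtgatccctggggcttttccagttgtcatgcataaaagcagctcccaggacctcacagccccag
Cxcl6 (chr14:17596418-17596667, minus strand): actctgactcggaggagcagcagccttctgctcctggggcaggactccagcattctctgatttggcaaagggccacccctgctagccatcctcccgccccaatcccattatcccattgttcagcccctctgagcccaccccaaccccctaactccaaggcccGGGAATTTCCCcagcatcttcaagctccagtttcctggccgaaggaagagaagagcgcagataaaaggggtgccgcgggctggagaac
Cxcr2 (chr9:83178395-83178644, plus strand): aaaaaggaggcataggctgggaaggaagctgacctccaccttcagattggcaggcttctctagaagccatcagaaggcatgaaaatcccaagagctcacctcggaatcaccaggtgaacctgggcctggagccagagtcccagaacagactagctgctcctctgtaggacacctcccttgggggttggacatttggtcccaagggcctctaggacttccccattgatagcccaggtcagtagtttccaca
Cxcl1 and Cxcl6 share GGGAATTTCCC, and Cxcl2 has GGGGATTTCCC. In each, 2 overlapping matches make 1 element, which begins 84 bases before the start site in Cxcl1, 74 in Cxcl2 and 88 in Cxcl6. The 2 matches are on opposite strands in Cxcl1 and Cxcl6, while in Cxcl2 both are found on the strand of the gene. The Cxcr2 window holds no match to the consensus. Promoter windows were at hand for 38 of the 49 genes, and 8 of them (21.1%) held the NF-kappaB consensus on either strand, against 3.54% of 33469 rat promoter windows of the same length. These were Cxcl1, Cxcl2, Cxcl6, Cxcl10, Cxcl11, Ccl20, Ccl9 and Ccr3, and Cxcl3 was not among the genes searched. The AP-1 heptamer TGANTCA was present in 6 of 38 (15.8%) against 6.34% of all windows, and the core of the interferon-stimulated response element, GAAANNGAAA, in 2 of 38 (5.26%) against 3.41%. Cxcl10 was the only gene of the 38 with a match to each of the 3 motifs, and among these motifs no match overlapped a match of another. A match describes the letters of the window and is not a measured binding site.

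A change was called a rise or a fall where limma's moderated test gave a Benjamini-Hochberg adjusted p under 0.05 over all 29215 probe sets and the difference exceeded 2-fold. By this rule 8 of the 49 genes changed after transplantation in at least 1 tissue: Cxcl1, Cxcl2, Cxcl3, Cxcl6, Ccl2, Cxcr2, Cxcr4 and Ackr3. The other 41 did not pass in any tissue.

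Footpad cells had the most changes. In them 7 genes fell, namely all 4 ELR ligands, Cxcr2, Ccl2 and Ackr3, which is 14.3% of the 49, where 2.64% of all probe sets fell. Cxcr4 was the 1 gene that rose, where 4.28% of all probe sets rose. In esophagus Cxcl1 and Cxcl2 rose and none fell, with 0.517% of all probe sets higher and 0.558% lower. In vagina Cxcl6, Cxcr2 and Ackr3 fell and none rose, against 1.68% lower and 0.534% higher overall. In oral mucosa Cxcl6 and Cxcr2 fell and none rose, against 2.15% lower and 1.50% higher. In trachea 0 genes passed in limma, with 0.496% of all probe sets higher and 0.883% lower. There 8 of the 49 had an unadjusted limma p under 0.05, the fewest of any tissue. The other counts were 18 in oral mucosa, 13 in vagina, 15 in esophagus and 19 in footpad. The counts of oral mucosa and trachea depended on single arrays: without replicate 2 of either stage 5 genes passed in oral mucosa, and Ccl2 passed in trachea. The median change over the 49 genes was 0.25 on the log2 scale in oral mucosa, 0.13 in vagina, 0.00 in esophagus, -0.19 in footpad and -0.05 in trachea, beside medians over all probe sets of 0.05, 0.06, -0.01, -0.03 and 0.01.

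**Figure D1:**
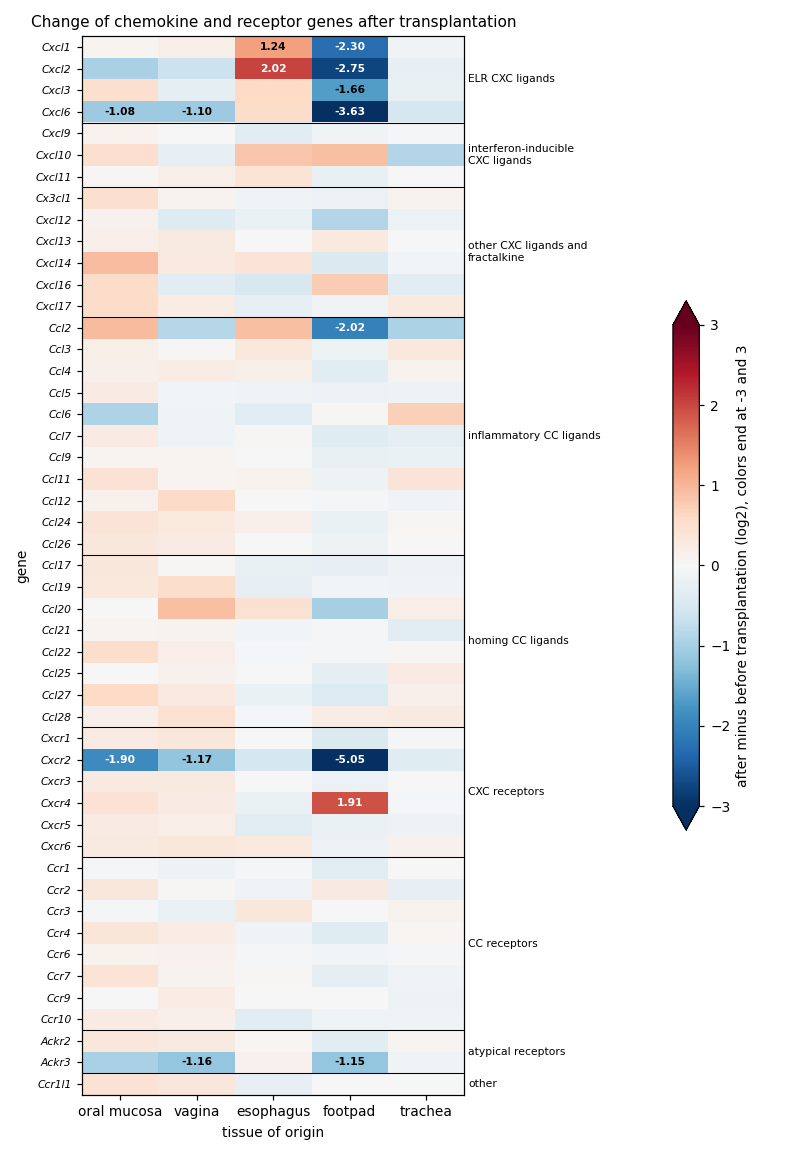
Change after transplantation of each of the 49 genes (rows, by role) in each tissue (columns), as the log2 difference between the means of 2 arrays. Printed numbers mark the 15 changes that passed the test. They lie in the ELR ligands, Ccl2, Cxcr2, Cxcr4 and Ackr3, and the column of trachea has none.

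Among the ELR ligands, Cxcl1 is the rat homologue of the growth-regulated oncogene chemokine and a main neutrophil attractant of injured epithelium. Its log2 values before transplantation were 10.39 and 10.00 in oral mucosa, 9.98 and 9.96 in vagina, 8.75 and 8.86 in esophagus, 10.84 and 10.88 in footpad, and 9.94 and 9.93 in trachea. After transplantation they were 10.24 and 10.31, 10.20 and 10.09, 10.06 and 10.03, 8.60 and 8.54, and 9.93 and 9.73, in the same order of tissues. Footpad thus went from the highest tissue to the lowest, and esophagus from the lowest into the range of the others. The fall in footpad was 4.91-fold (log2 change -2.30 ± 0.11, SE, n = 2 and 2, limma adjusted p = 2.51e-09) and the rise in esophagus 2.36-fold (1.24 ± 0.11, limma adjusted p = 1.08e-05). In oral mucosa, vagina and trachea the changes of 0.08, 0.18 and -0.10 did not pass.

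Cxcl2, the macrophage inflammatory protein 2 of rodents, moved in the same directions in these tissues. In esophagus its values were 5.84 and 5.64 before and 7.82 and 7.71 after transplantation, a rise of 4.07-fold (2.02 ± 0.22, limma adjusted p = 5.24e-05). In footpad they were 7.22 and 7.31 before and 4.40 and 4.63 after, a fall of 6.75-fold (-2.75 ± 0.22, limma adjusted p = 3.08e-07). The footpad values after transplantation lay under 4.77, the level below which 40% of all probe sets had their mean, and those of the other groups above it. Oral mucosa had 8.51 and 7.65 before against 6.96 and 7.24 after, vagina 8.40 and 8.01 against 7.71 and 7.40, and trachea 8.14 and 8.09 against 7.78 and 7.96. The duplicates before and after did not overlap in any of these 3 tissues, but the changes of -0.98, -0.65 and -0.25 fell short of 2-fold. Their limma adjusted p were 0.00562, 0.0544 and 0.555, so those of vagina and trachea did not pass on p either.

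Cxcl6, called LIX in rodents, attracts neutrophils through the same receptor. It fell in 3 tissues. Oral mucosa had 9.17 and 9.03 before against 8.02 and 8.02 after, vagina 8.84 and 9.20 against 7.87 and 7.96, and footpad 9.09 and 9.32 against 5.59 and 5.55. The fold sizes were 2.11, 2.14 and 12.4, with log2 changes of -1.08, -1.10 and -3.63 (each ± 0.12, SE) and limma adjusted p of 1.74e-05, 2.41e-05 and 1.10e-10. The fall in footpad was the deepest of any ligand in the set. In esophagus Cxcl6 went from 7.85 and 7.74 to 8.40 and 8.29, and in trachea from 10.05 and 9.90 to 9.37 and 9.57. Both of these changes, 0.55 and -0.51, were under 2-fold. The vaginal fall was just over the 2-fold limit and was -0.92 without replicate 2 of vagina before transplantation, when it no longer passed.

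Cxcl3 gave a smaller version of the footpad fall, from 6.45 and 5.90 to 4.30 and 4.72 (3.17-fold, -1.66 ± 0.23, limma adjusted p = 4.48e-05). Elsewhere its changes ran from -0.29 in vagina to 0.60 in esophagus and did not pass. Cxcl1, Cxcl2 and Cxcl3 are close in sequence, and how far their probes bind each other's transcripts was not tested.

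**Figure D2:**
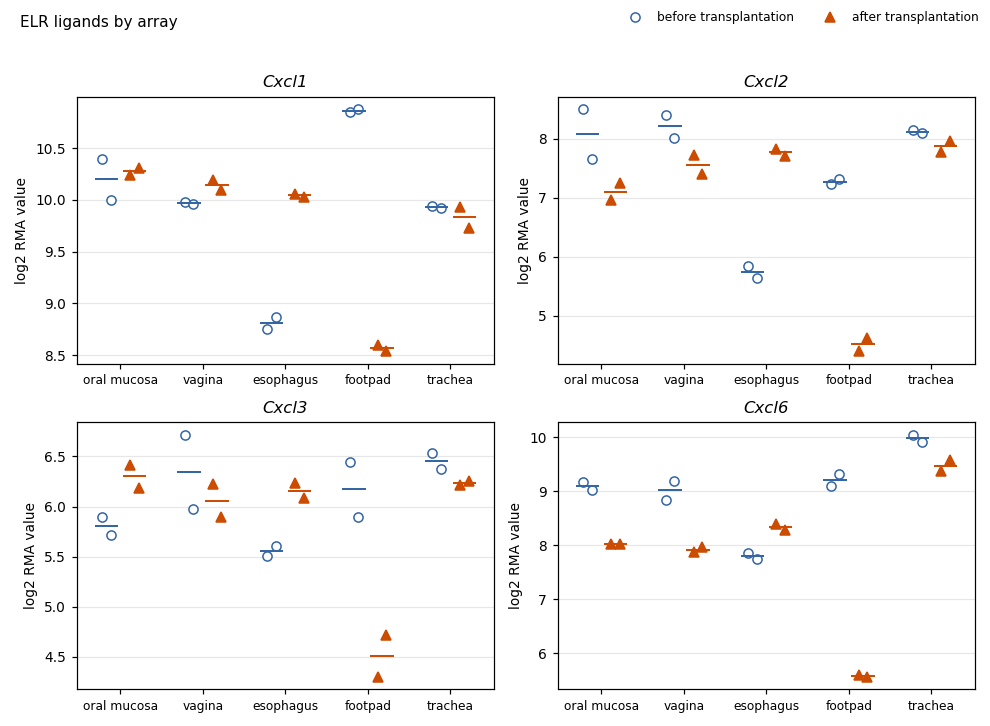
Log2 values of Cxcl1, Cxcl2, Cxcl3 and Cxcl6 on each of the 20 arrays, by tissue, with circles before and triangles after transplantation and bars at the mean of 2 arrays. The axes do not start at 0. In footpad the 2 triangles of each gene lie below both circles, and in esophagus they lie above both.

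In the RefSeq gene table the protein-coding genes of this region of chromosome 14 stand in the order Cxcl2, Cxcl1, LOC134481726, Cxcl3, Pf4, Ppbp and Cxcl6. Ppbp, the precursor of the neutrophil-attracting ELR ligand Cxcl7, is outside the set because its symbol does not carry the Cxcl prefix. Its footpad values were 7.02 and 7.47 before and 10.66 and 10.66 after transplantation, a rise of 3.41 ± 0.13 (limma adjusted p = 3.58e-10) in the cells in which all 4 ELR ligands of the set fell. In oral mucosa Ppbp fell from 11.67 and 11.72 to 9.49 and 9.34 (-2.27 ± 0.13, limma adjusted p = 4.19e-08), while Cxcl1 there differed by 0.08. In trachea it fell from 9.85 and 9.73 to 8.59 and 8.95 (-1.02, limma adjusted p = 0.000193), and in vagina and esophagus its changes of 0.85 and 0.95 stayed under 2-fold. Pf4, platelet factor 4, between Cxcl3 and Ppbp, changed by less than 2-fold in each tissue, from -0.94 in oral mucosa to 0.44 in trachea. Thus neighbouring ligand genes moved in opposite directions in footpad cells.

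**Figure D3:**
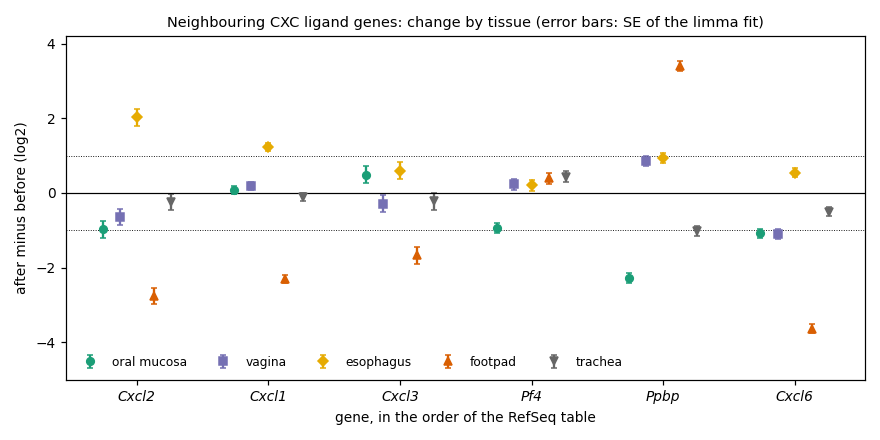
Log2 change after transplantation of Cxcl2, Cxcl1, Cxcl3, Pf4, Ppbp and Cxcl6 in each of the 5 tissues, with error bars of 1 SE from the limma fit and dotted lines at 2-fold. In footpad (triangles pointing up) Ppbp lies at 3.41 and the 4 Cxcl genes between -1.66 and -3.63.

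Cxcr2, the receptor that the ELR ligands share, gave the largest change of the 49 genes. Its values were 9.18 and 9.36 in footpad before transplantation and 4.08 and 4.36 after it, a fall of 33.1-fold (-5.05 ± 0.20, limma adjusted p = 3.56e-10). Both values after transplantation lay under 4.77, the level below which 40% of all probe sets had their mean. It fell 3.74-fold in oral mucosa, from 9.42 and 8.98 to 7.63 and 6.97 (-1.90 ± 0.20, limma adjusted p = 7.83e-06). In vagina it fell 2.26-fold, from 9.38 and 9.64 to 8.32 and 8.35 (-1.17 ± 0.20, limma adjusted p = 0.000818). Esophagus had 8.75 and 8.66 before against 8.13 and 8.25 after, and trachea 7.59 and 7.21 against 7.05 and 7.02. These last changes, -0.52 and -0.37, did not pass, and all 5 differences had the same sign. In esophagus Cxcl1 and Cxcl2 rose while their receptor showed no rise.

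Ackr3, the scavenger receptor for Cxcl12, was highest in oral mucosa in both stages, at 9.95 and 9.84 before and 8.87 and 8.96 after transplantation. It fell 2.23-fold in vagina, from 8.35 and 8.52 to 7.23 and 7.34 (-1.16 ± 0.11, limma adjusted p = 7.56e-06). The footpad fall was also 2.23-fold, from 8.54 and 8.67 to 7.38 and 7.52 (-1.15 ± 0.11, limma adjusted p = 2.21e-06). The difference in oral mucosa, -0.98 with a limma adjusted p of 2.12e-05, was just short of 2-fold. In esophagus (7.54 and 7.38, then 7.61 and 7.58) and trachea (7.59 and 7.28, then 7.25 and 7.38) the values stayed close together.

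Cxcr4, the signalling receptor of Cxcl12, was low in 9 of the 10 groups, with arrays between 4.35 and 5.02. The exception was footpad after transplantation, at 6.66 and 6.65 against 4.80 and 4.70 before it (3.76-fold, 1.91 ± 0.13, limma adjusted p = 6.22e-08). Footpad cells after transplantation therefore had more Cxcr4 and less Ackr3, less Cxcr2 and less of each ELR ligand of the set. Their Cxcl12 values were 4.51 and 4.13, against 5.06 and 5.34 before, a difference of -0.89 that did not reach 2-fold (limma adjusted p = 0.000563).

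**Figure D4:**
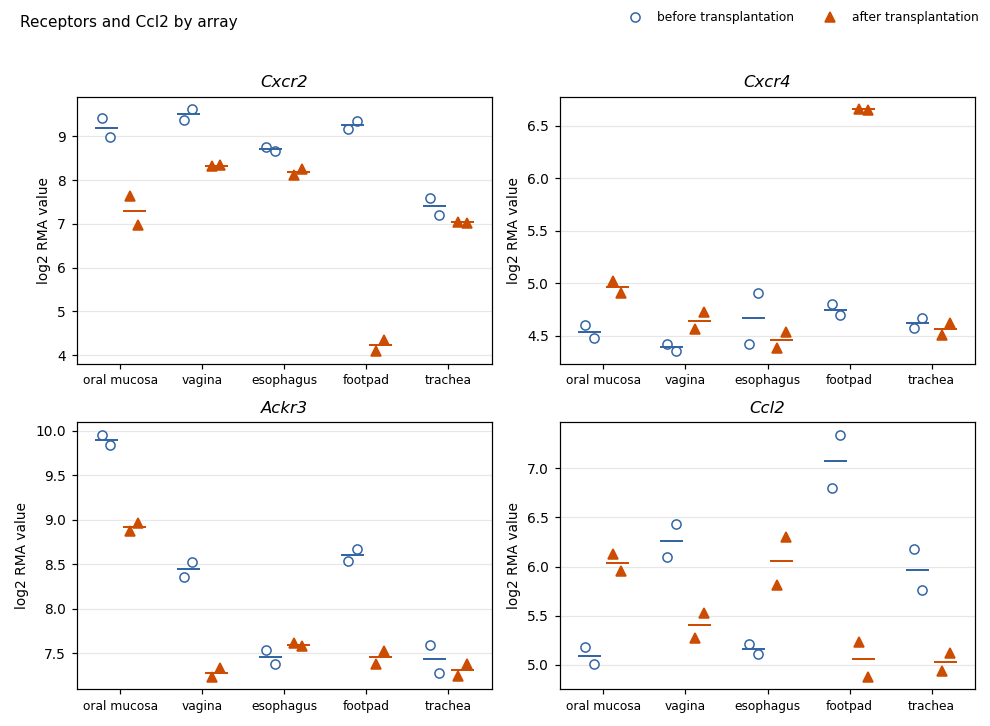
Log2 values of Cxcr2, Cxcr4, Ackr3 and Ccl2 on each of the 20 arrays, by tissue, with circles before and triangles after transplantation and bars at the mean of 2 arrays. The axes do not start at 0. In footpad, Cxcr4 rises to 6.66 and 6.65 while Cxcr2 drops to 4.08 and 4.36.

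Of the 19 CC ligands, which act mainly on monocytes, T cells and eosinophils, only Ccl2, the main monocyte attractant, passed in any tissue. It fell 4.05-fold in footpad, from 6.80 and 7.34 to 5.23 and 4.87 (-2.02 ± 0.21, limma adjusted p = 4.29e-06). In oral mucosa it went from 5.17 and 5.01 to 6.13 and 5.95, and in esophagus from 5.21 and 5.11 to 5.81 and 6.30. In vagina it went from 6.10 and 6.43 to 5.28 and 5.53, and in trachea from 6.18 and 5.76 to 4.94 and 5.12. The changes in these 4 tissues, 0.95, 0.90, -0.86 and -0.94, each had an adjusted p under 0.05 in limma but a size under 2-fold. The median of the fibroblast markers had the sign of the Ccl2 change in 4 of the 5 tissues. The median change of the 11 markers was -1.32 in footpad, -1.19 in vagina, -1.23 in trachea, 0.25 in oral mucosa and -0.02 in esophagus. Their part in the Ccl2 values was not tested. Ccl20, which attracts Ccr6-bearing lymphocytes and dendritic cells, went from 6.29 and 6.21 to 5.37 and 5.14 in footpad (-0.99, limma adjusted p = 0.00177) and from 5.06 and 5.07 to 6.15 and 5.80 in vagina (0.91, limma adjusted p = 0.00699), both just short of 2-fold. Ccl6 stayed under 4.77 on every array, with its highest values, 4.52 and 4.60, in oral mucosa before transplantation.

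Of the interferon-inducible ligands, Cxcl10 had changes of both signs that stayed under 2-fold. It went from 6.33 and 6.37 to 7.12 and 7.38 in footpad, from 6.36 and 6.26 to 7.05 and 7.21 in esophagus, and from 7.26 and 7.35 to 6.42 and 6.45 in trachea. Its footpad change of 0.90 was opposite in sign to those of the ELR ligands. Cxcl16, a membrane-bound ligand of Cxcr6, kept between 10.03 and 11.44 on all 20 arrays. Its change was 0.77 in footpad, 0.56 in oral mucosa and -0.48 in esophagus, each with a limma adjusted p under 0.05 but not 2-fold. Cxcl14, a ligand made by many resting epithelia, went from 4.66 and 5.17 to 5.87 and 5.79 in oral mucosa (0.92, limma adjusted p = 0.000455).

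The remaining 35 genes passed none of the tests, with changes between -0.44 and 0.59 in all 5 tissues. They include all 8 CC receptors (-0.37 to 0.41), 9 inflammatory CC ligands (-0.36 to 0.57), 7 homing CC ligands (-0.40 to 0.59), Cxcr1, Cxcr3, Cxcr5 and Cxcr6 (-0.44 to 0.35), Cxcl9 and Cxcl11 (-0.31 to 0.42), Cx3cl1, Cxcl13 and Cxcl17 (-0.24 to 0.55), Ackr2 and Ccr1l1. For 17 of the 49 genes every group mean lay under 4.77, where a change could be hard to see, and for another 17 none did. In 38 of the 49 the 10 group means spanned less than 1 on the log2 scale.

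The tissues also differed within a stage. Before transplantation 8 of the 49 genes (16.3%) differed among the 5 tissues by limma's F test with a largest difference over 2-fold, where 9.05% of all probe sets did. The largest differences were 2.46 for Cxcl2 and for Ackr3, 2.18 for Cxcl6, 2.11 for Cxcr2, 2.06 for Cxcl1 and 1.98 for Ccl2, followed by 1.47 for Ccl6 and 1.19 for Ccl20. Esophagus had the lowest mean of Cxcl1, Cxcl2, Cxcl3 and Cxcl6 in this stage, and trachea the lowest of Cxcr2. After transplantation 9 genes (18.4%) differed among tissues, where 11.9% of all probe sets did. The differences then reached 4.11 for Cxcr2, 3.90 for Cxcl6, 3.36 for Cxcl2, 2.20 for Cxcr4, 1.79 for Cxcl3, 1.71 for Cxcl1, 1.64 for Ackr3, 1.31 for Cxcl16 and 1.03 for Ccl2. Footpad then had the lowest mean of all 4 ELR ligands and of Cxcr2, and the highest of Cxcr4 and Cxcl16.

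Whether the response itself differed among tissues was tested in the same fit. It did for 14 of the 49 genes (28.6%), where 18.5% of all probe sets did. The largest gaps between 2 tissues were 4.78 for Cxcl2 and 4.68 for Cxcr2, with limma adjusted p of 5.84e-07 and 7.58e-08. Each tissue's response was then compared with the mean response of the other 4. In footpad it was lower for 7 genes, Cxcr2 (-4.06 ± 0.22), Cxcl6 (-3.10 ± 0.14), Cxcl2 (-2.79 ± 0.25), Cxcl1 (-2.64 ± 0.12), Ccl2 (-2.03 ± 0.24), Cxcl3 (-1.81 ± 0.25) and Ccl20 (-1.39 ± 0.23), against 2.81% of all probe sets. It was higher for Cxcr4 (1.81 ± 0.14), against 5.42%. The fall of Ackr3 in footpad did not differ 2-fold from the other tissues (-0.62 ± 0.13).

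In esophagus the response was higher than in the other 4 tissues for 6 genes, Cxcl2 (3.18 ± 0.25), Cxcl6 (2.13 ± 0.14), Cxcl1 (1.77 ± 0.12), Ccl2 (1.62 ± 0.24), Cxcr2 (1.60 ± 0.22) and Cxcl3 (1.02 ± 0.25), against 0.746% of all probe sets. Of these only Cxcl1 and Cxcl2 had themselves risen, and the mean of the other tissues includes the footpad falls. In trachea the response was higher for Cxcr2 (1.79 ± 0.22) and Ccl6 (1.04 ± 0.21), against 0.818%, and lower for Cxcl10 (-1.37 ± 0.13), against 1.62%. In oral mucosa it was higher for Ccl2 (1.68 ± 0.24), against 1.95%. With each tissue's change as 1 value, the mean over the 5 tissues was tested too, and limma called 0 probe sets. At an unadjusted p under 0.05, 3273 of them passed, among them Cxcr2 (-1.80 ± 0.67, adjusted p = 0.398) and Ackr3 (-0.66 ± 0.22, adjusted p = 0.372).

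Lists of genes that act with chemokines were read in the same fit, and their counts stand beside the shares of all probe sets that rose and fell: 4.28% and 2.64% in footpad, 1.50% and 2.15% in oral mucosa, 0.534% and 1.68% in vagina, 0.517% and 0.558% in esophagus, and 0.496% and 0.883% in trachea. Of 11 chemokine relatives outside the naming rule, Ppbp was joined by Cd74, the invariant chain and a receptor for the cytokine Mif, which rose by 1.33 in oral mucosa. Of 23 genes of chemokine receptor signalling, 1 rose and 4 fell in footpad, 2 rose and 2 fell in oral mucosa, 2 fell in vagina, 1 rose in esophagus and 1 fell in trachea. Arrb1, the beta-arrestin that takes activated receptors off the membrane, fell in 2 tissues. Its footpad values were 9.72 and 9.81 before and 5.54 and 5.76 after transplantation, and its vaginal values 9.75 and 9.82 before and 7.56 and 7.62 after. Gnai1, an inhibitory G protein subunit that receptors of this family couple to, rose by 1.91 in oral mucosa and 3.72 in esophagus, and fell by 1.94 in footpad and by 1.31 in trachea.

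Of 20 NF-kappaB pathway genes 3 fell in footpad, Nfkb2 (-1.16), Nfkbia (-1.05) and Irak3 (-1.01), and none rose in any tissue. A negative median change of the 20 was not particular to footpad. It was -0.30 in footpad, -0.30 in vagina, -0.26 in trachea and -0.21 in esophagus, against 0.06 in oral mucosa. Nfkbia, the inhibitor that NF-kappaB itself induces, had footpad values of 11.39 and 11.38 before and 10.37 and 10.30 after transplantation. In esophagus, where Cxcl1 and Cxcl2 rose, 0 of the 20 passed in limma (11 had an unadjusted p under 0.05), and Nfkbia went from 10.37 and 10.24 to 10.72 and 10.62. In oral mucosa Zc3h12a, an RNase that destroys inflammatory transcripts, fell (-1.21), and in vagina the kinase gene Ikbke did (-1.11).

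Of 20 genes of the interleukin 1, interleukin 36, interferon and related cytokine systems, inhibitors included, 8 rose and 2 fell in footpad. Il1r2 (5.43), the interleukin 1 decoy receptor, and Il36rn (4.78), the antagonist of interleukin 36, rose most, followed by Il36g (3.11) and Ifngr1 (2.24). Il1r2 went from 5.06 and 4.73 to 10.12 and 10.51. Il1rn, the interleukin 1 receptor antagonist, also rose (2.18), and Tnf (-1.20) and Il1a (-1.13) fell. In oral mucosa 1 gene of this list rose, Il18 (2.30), and 3 fell, Il1a (-3.71), Il36b (-2.72) and Il1rn (-1.39). In vagina 2 genes fell, Il18 (-3.27) and Il1a (-2.53), and 3 rose. Those that rose were Il1r2, Il36rn and Il36g, each by less than in footpad. In trachea Il36b alone of this list passed, with a rise of 1.02. In esophagus Il18 alone of this list passed, with a fall of 1.11 on the log2 scale. Its means there, 4.25 before and 3.14 after transplantation, were both under 4.77. Il18 also passed in footpad, with a change of 1.55. Of 9 genes listed as chemokine-processing proteases, 3 fell and 1 rose in footpad, namely Mmp9 (-2.06), Mmp12 (-1.40) and Mmp2 (-1.40) against Ctsc (1.03). Whether the product of each gene on this list cuts chemokines itself was not tested. In oral mucosa Mmp13 fell (-2.07) and Mmp12 rose (1.00), and Mmp2 also fell in vagina (-1.44) and trachea (-1.27).

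Markers of cell types were read beside these changes, because in bulk RNA fewer cells of a type and less RNA per cell cannot be told apart. The mean of 9 basal keratinocyte markers was between 10.96 and 11.21 on every array. Only Epcam in footpad passed among them, with a rise of 3.00. The mean hides changes of opposite sign there, such as 0.73 for Cdh1 and -0.75 for Itgb4. In footpad 8 of the 9 had an unadjusted limma p under 0.05. The other counts were 6 in oral mucosa, 6 in vagina, 2 in esophagus and 4 in trachea. Krt4 and Krt13, mucosal keratins, were high in oral mucosa and esophagus before transplantation. Krt13 then also had means of 10.68 in vagina and 9.90 in trachea, and Krt4 had 8.31 in trachea. After transplantation Krt4 fell, with changes of -6.63 in oral mucosa, -3.93 in esophagus and -1.47 in vagina. So did Krt13, with -3.69, -2.05 and -4.36, while Krt13 rose by 2.48 in footpad. In trachea the changes were 0.96 for Krt13 and 0.77 for Krt4, both under 2-fold. These shifts accompanied the chemokine changes, and their part in them was not tested. Krt9, the keratin of palm and sole skin, was 4.97 and 4.89 in footpad before transplantation, within the range of the other tissues. Nkx2-1, a factor of airway epithelium, was 6.64 and 6.77 in trachea, above the other tissues' highest value of 6.35 in that stage. The mean of 16 leukocyte markers was between 4.22 and 4.45 on every array, with Ptprc, the pan-leukocyte gene Cd45, no higher than 3.98, and Cd68 alone passed (-1.96 in oral mucosa, -1.07 in vagina). Cd14, on the same list, was high, with group means between 8.60 and 9.79. Its changes were 0.97 in footpad (limma adjusted p = 2.45e-06) and -0.52 in oral mucosa (limma adjusted p = 0.00137). They were -0.43 in vagina, -0.31 in esophagus and 0.25 in trachea, and all stayed under 2-fold. In limma 0 of 7 endothelial and 0 of 4 melanocyte markers passed in any tissue, with at most 1 of each list at an unadjusted p under 0.05 in a tissue. Of 11 fibroblast markers 6 fell in vagina, 7 in footpad and 7 in trachea, where their mean level dropped from between 6.41 and 6.57 to between 5.01 and 5.11. In oral mucosa it went from 4.84 and 4.90 to 5.48 and 5.45, with Vim higher by 5.10, and in esophagus it stayed between 4.85 and 5.01. The part of these shifts in the changes of the 49 genes was not tested.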

How the data were processed

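RNA of EGFP-sorted rat epithelial cells was hybridized to Affymetrix Rat Gene ST arrays. The authors computed log2 gene-level values with RMA in Affymetrix Expression Console (versions not given in the sources used here), and these 20 deposited columns, with medians between 5.31 and 5.55, were analysed without further scaling. Duplicates correlated at 0.991 to 0.996. The number of arrays limits the precision. Of 29215 probe sets, 15310 had 1 symbol, 323 several and 13582 none. Each gene of the set was represented by its probe set of highest mean over the arrays, and all 49 gene IDs were found in RefSeq GRCr8. The set and the lists were chosen with earlier results of these data known.

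One limma model (version 3.58.1, R 4.3.3) with a mean per group was fitted to all probe sets (10 residual and 3.64 prior degrees of freedom). Calls required an adjusted p under 0.05 and over 2-fold. On simulated data of this shape for the footpad comparison over 29215 probe sets, 99 of 100 genes changed by 1.5 and 100 of 100 changed by 3 (log2) were recovered. Recovery of changes between 2-fold and 1.5 (log2), where several of the calls lie, was not tested. Genes called after transplantation or among tissues were named, those called in at least 2 tissues with every array, and list genes by size. The replicate numbers did not pair the samples. The protein sequences of the set were not analysed here.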

Additional observations from a re-analysis of the deposited data

Results flagged for a closer look

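The responses of 14 genes to transplantation differed among the 5 tissues by limma's F test, with a largest difference between 2 tissues' responses over 2-fold. For the neutrophil ligands and their receptor these differences, on the log2 scale, were 4.78 for Cxcl2, 4.68 for Cxcr2, 4.18 for Cxcl6, 3.53 for Cxcl1 and 2.27 for Cxcl3. Esophagus had the highest response and footpad the lowest in Cxcl1, Cxcl2, Cxcl3 and Cxcl6, while in Cxcr2 the highest was trachea. Differences of 2.97 for Ccl2 and 1.90 for Ccl20 also had footpad as the lowest, with oral mucosa and vagina as the highest, respectively. In Cxcr4, with 2.12, footpad was the highest and esophagus the lowest. The remaining differences were 1.77 for Cxcl10, 1.63 for Ccl6, 1.36 for Cxcl14, 1.29 for Ackr3, 1.25 for Cxcl16 and 1.02 for Cxcl12. That of Cxcl12 was the smallest. It did not pass with a replicate block pairing the stages, with array weights or with the arrays centred on their medians. Without replicate 1 of oral mucosa before or after transplantation the Cxcl12 difference was 0.999 or 0.995. Without replicate 2 of footpad before or after it was 0.88 or 0.83, so each of these was under 2-fold. Leaving out the lowest 40% of probe sets removed Ccl6 and Cxcl12 from the test, so that setting could not check either. All 10 group means of Ccl6 were under 4.77, which also bears on its difference among tissues before transplantation.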

How the results depend on the processing

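The 15 changes that passed were recomputed 422 times under the alternatives. In 421 of these the change kept its sign and stayed over 2-fold, and none reversed. The exception was Cxcl6 in vagina without replicate 2 before transplantation (-0.92). Many of the recomputations could not move the size of a change. Leaving out an array of neither compared group alters only the shared spread, and some other settings also keep the estimate. The 421 are therefore not separate checks. With arrays centred on their medians 5 genes passed in oral mucosa in place of 2, since Ackr3 (-1.12), Ccl6 (-1.07) and Cxcl2 (-1.11) went past 2-fold. By it, the median over all probe sets there moved from 0.05 to -0.09. Leaving out 1 array at a time gave 2 to 5 genes in oral mucosa (5 without replicate 2 before or replicate 2 after), 2 to 4 in vagina, 2 to 3 in esophagus, 8 to 11 in footpad, 0 to 1 in trachea (Ccl2, without replicate 2 before or after), 8 to 9 among tissues before, 9 to 10 after, 13 to 17 for the response and 0 for the mean response. A lone array was assumed to vary like the other groups. With a replicate block pairing before and after, the counts were 2, 3, 2, 8 and 0 in oral mucosa, vagina, esophagus, footpad and trachea, and 13 for the response in place of 14. The correlations of replicate differences before and after ran from -0.15 in oral mucosa to 0.03, and crossing the numbers there also gave 2 genes. Each gene had 1 probe set, so another choice of probe set gave nothing new.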
